A study of Homo sapiens with 16 samples.

Results

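The 43 genes described here encode nucleolar ribosome assembly factors, the proteins that make, modify, cut and fold ribosomal RNA before the subunits leave the nucleolus. They were taken by gene symbol from a list of 43 names, as protein-coding entries among the 58735 genes of each deposited table, and all 43 were found. RNA of BxPC3 and PANC-1, 2 established lines of human pancreatic ductal adenocarcinoma, was sequenced after poly-A selection. There were 4 groups of 4 libraries: BxPC3 with gemcitabine, untreated BxPC3 control, PANC-1 with gemcitabine and untreated PANC-1 control. Gemcitabine is a deoxycytidine analog that blocks DNA synthesis. Its dose and the exposure time were not used here, since the labels state neither, and the labels name no genetic change shared by the groups. Nothing says that the 4 libraries of a group are separate cultures. The p-values therefore cover the spread between these libraries alone, and this may be technical. The study asked how the drug changes RNA levels in both lines.

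Ribosome assembly starts when RNA polymerase I transcribes the ribosomal DNA repeats into one long precursor. Small nucleolar ribonucleoprotein particles (snoRNPs) then modify it, the box C/D type by methylating riboses and the box H/ACA type by making pseudouridine. Small-subunit and large-subunit factors cleave and fold the precursor around ribosomal proteins. In tumour cells many of these genes are known targets of the transcription factor MYC, whose dimer with MAX binds the E-box CACGTG.

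The promoter windows of 5 members show where that E-box lies. MRTO4 and UTP4 are shown because their response differed most clearly between the lines among members with the motif, UTP20 because it was higher with the drug in BxPC3 and lower in PANC-1, and FBL and NOP10 because they were the 2 tested members not called in BxPC3. Each window runs 5′ to 3′ on the gene's strand, 250 bases before to 50 bases after the annotated start (RefSeq, GRCh38.p14), and CACGTG is in capitals. The windows are chr1:19251555-19251854 on the plus strand for MRTO4, chr16:69132399-69132698 on the plus strand for UTP4, chr12:101279855-101280154 on the plus strand for UTP20, chr19:39846330-39846629 on the minus strand for FBL and chr15:34343087-34343386 on the minus strand for NOP10.
MRTO4: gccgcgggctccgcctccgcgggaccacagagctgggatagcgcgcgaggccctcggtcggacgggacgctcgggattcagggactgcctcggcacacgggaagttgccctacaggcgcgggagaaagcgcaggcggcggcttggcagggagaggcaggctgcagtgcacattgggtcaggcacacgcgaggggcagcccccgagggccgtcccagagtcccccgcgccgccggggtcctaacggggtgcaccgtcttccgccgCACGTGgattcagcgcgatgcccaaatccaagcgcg
UTP4: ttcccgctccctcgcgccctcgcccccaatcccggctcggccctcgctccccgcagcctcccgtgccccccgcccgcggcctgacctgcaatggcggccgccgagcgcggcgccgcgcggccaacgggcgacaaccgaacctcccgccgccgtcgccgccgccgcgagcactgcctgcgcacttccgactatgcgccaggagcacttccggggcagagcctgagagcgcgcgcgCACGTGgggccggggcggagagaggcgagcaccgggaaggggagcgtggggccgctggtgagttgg
UTP20: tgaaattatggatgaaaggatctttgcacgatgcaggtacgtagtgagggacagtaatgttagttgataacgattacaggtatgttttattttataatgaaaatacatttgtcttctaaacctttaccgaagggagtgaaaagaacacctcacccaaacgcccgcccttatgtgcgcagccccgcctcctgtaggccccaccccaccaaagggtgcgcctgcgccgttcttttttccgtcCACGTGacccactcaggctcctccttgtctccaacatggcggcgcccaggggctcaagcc
FBL: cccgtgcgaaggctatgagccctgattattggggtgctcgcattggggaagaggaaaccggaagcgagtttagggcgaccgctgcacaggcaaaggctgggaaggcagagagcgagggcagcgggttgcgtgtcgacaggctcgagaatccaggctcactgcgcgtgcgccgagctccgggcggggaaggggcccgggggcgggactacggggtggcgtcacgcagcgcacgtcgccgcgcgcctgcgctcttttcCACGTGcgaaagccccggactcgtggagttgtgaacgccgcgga
NOP10: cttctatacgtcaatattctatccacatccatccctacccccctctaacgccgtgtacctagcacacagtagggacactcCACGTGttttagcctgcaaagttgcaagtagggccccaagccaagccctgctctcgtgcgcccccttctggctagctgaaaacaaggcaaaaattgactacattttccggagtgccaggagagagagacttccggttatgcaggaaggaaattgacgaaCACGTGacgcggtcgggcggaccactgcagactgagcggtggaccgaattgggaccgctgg
Counted in bases from the annotated start at 0, the motif began at 14 in MRTO4, -16 in UTP4, -10 in UTP20 and 6 in FBL. NOP10 held it at -170 and at -11. The table of promoters had 42 windows for 35 members, since some genes have several starts, and CACGTG, which reads the same on both strands, was in 17 of the 42 (40.5%). It was in 31 of 112 windows (27.7%) of a wider list of other ribosome assembly genes, in 9.38% of 13921 windows of tested protein-coding genes and in 7.26% of all 35116 windows. The nearest copy began between -64 and 35 in all 17. Most members were higher in BxPC3 with or without the motif: 14 of the 16 tested members with it were higher with gemcitabine (median log2 change 0.56), and so were all 18 tested members whose windows lacked it (median 0.49). In PANC-1 4 of the 16 with it and 4 of the 18 without it were higher, with medians of 0.20 and 0.13. A match is a string of letters in a window and says nothing of binding.

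**Figure D1:**
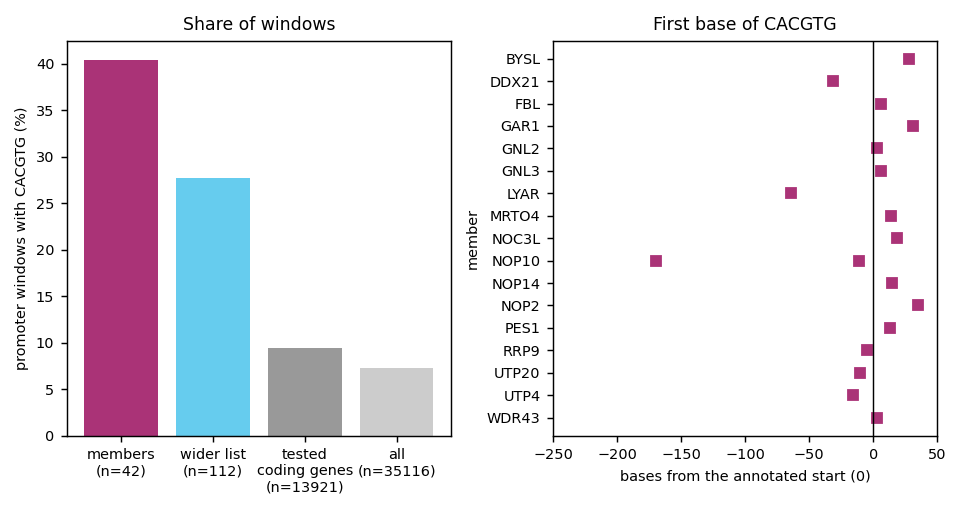
Left, the percentage of promoter windows that hold CACGTG among the members, the wider list, tested protein-coding genes and all windows, with the number of windows under each bar. Right, the first base of each CACGTG in bases from the annotated start for the 17 members that hold it; the nearest copy of each lies between -64 and 35.

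Values are FPKM, read counts scaled by the authors to gene length and library size, so levels can be compared between genes within a table. Changes were tested with limma on log2(FPKM + 1), and a gene is called higher or lower at a Benjamini-Hochberg adjusted p under 0.05 over all genes tested. On this scale the change of genes at a few FPKM is understated. In all, 42 of the 43 members passed the filter of at least 1 FPKM in at least 4 libraries, and each of these 42 was above 1 FPKM in every library, with a lowest value of 1.20 FPKM. The exception was NOP2, an RNA methyltransferase of the large subunit pathway, at 0.133 to 0.203 FPKM in BxPC3 with gemcitabine, 0.0185 to 0.0991 in BxPC3 controls, 0.10 to 0.187 in PANC-1 with gemcitabine and 0.145 to 0.248 in PANC-1 controls. NOP2 shares 54.4% of its exonic bases with another listed gene on the same strand, AC006064.6, which was itself at 0.00115 FPKM or less on average in each group; the part of this overlap in the low values was not tested.

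Depth was 22152034 to 37777222 reads in listed genes per library, and the member with the fewest, PPAN, had at least 121 reads in every library. Epithelial keratins were high in both lines (KRT8 at 111 to 390 FPKM over all libraries), while CDH1 was at 76.7 to 94.7 FPKM in BxPC3 and at 0.481 to 0.977 FPKM in PANC-1. The leukocyte and fibroblast markers checked were at 0.399 FPKM or less. Of the endothelial pair, CDH5 was at 5.4 to 6.0 FPKM in BxPC3 with gemcitabine and 0.530 to 0.654 FPKM in controls, PECAM1 was at 0.0846 to 0.187 FPKM with gemcitabine and 0.632 to 0.857 FPKM in controls, and their part in the results was not tested. SMAD4, known to be deleted in BxPC3, was at 0 there and at 3.03 to 4.04 FPKM in PANC-1. PANC-1 gemcitabine replicate 1 stood apart from the other 3 gemcitabine libraries of its group along the second principal component (20.4% of the variance of PANC-1). Results for PANC-1 are therefore given with and without it.

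In BxPC3 nearly the whole set was higher with gemcitabine. Of 42 tested members, 40 were called higher, 0 were called lower and 2, FBL and NOP10, were not called. Folds ran between 0.968 and 2.26 with a median of 1.57. On the log2 scale the median was 0.57, against 0.00 over all genes tested. With every library rescaled to the same FPKM sum (TPM) it was 0.72, against 0.09. Among all 12215 genes tested in this line 37.3% were called higher and 36.1% lower. Limma found 0 members lower at an unadjusted p under 0.05 as well, and limma-voom on reads recovered from the FPKM called 40 higher and 0 lower, against 41.4% and 32.8% of all genes. Every gemcitabine library was above every control for 38 members, below every control for 0, and overlapped the controls for 4, against 34.3% of all genes above and 33.2% below. Changes of at least 1 on the log2 scale were limited to BOP1, NOP56 and TCOF1, 3 of 42 against 4.40% of all genes. The log2 change did not follow the control level across the 42 members (Pearson r = -0.04, a description over genes measured in the same libraries). These are changes relative to the other RNA of a bulk sample: more cells with a transcript and more of it per cell cannot be told apart.

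In PANC-1 the set was mixed. With all 4 gemcitabine libraries, 12 members were called higher, 4 lower (RRS1, NIP7, WDR12 and UTP20) and 26 were not called, with a median log2 change of 0.16 against -0.02 over all genes. Among all 12508 genes tested in this line 20.7% were called higher and 24.0% lower, and the members' 12 of 42 is not far above that. The gemcitabine libraries lay above all controls for 15 members, below them for 4 and overlapped them for 23, against 21.3% of all genes above and 24.5% below. Limma-voom called 12 higher and 5 lower, the fifth being FBL, against 19.7% and 25.9% of all genes. Without replicate 1 limma called 26 members higher and 6 lower, with a median log2 change of 0.15. All 16 calls made with it remained, and over all genes the calls grew to 4102 higher (32.8%) and 4626 lower (37.0%). No member changed by 1 or more on the log2 scale in PANC-1, where 3.21% of all genes were higher by that much.

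**Figure D2:**
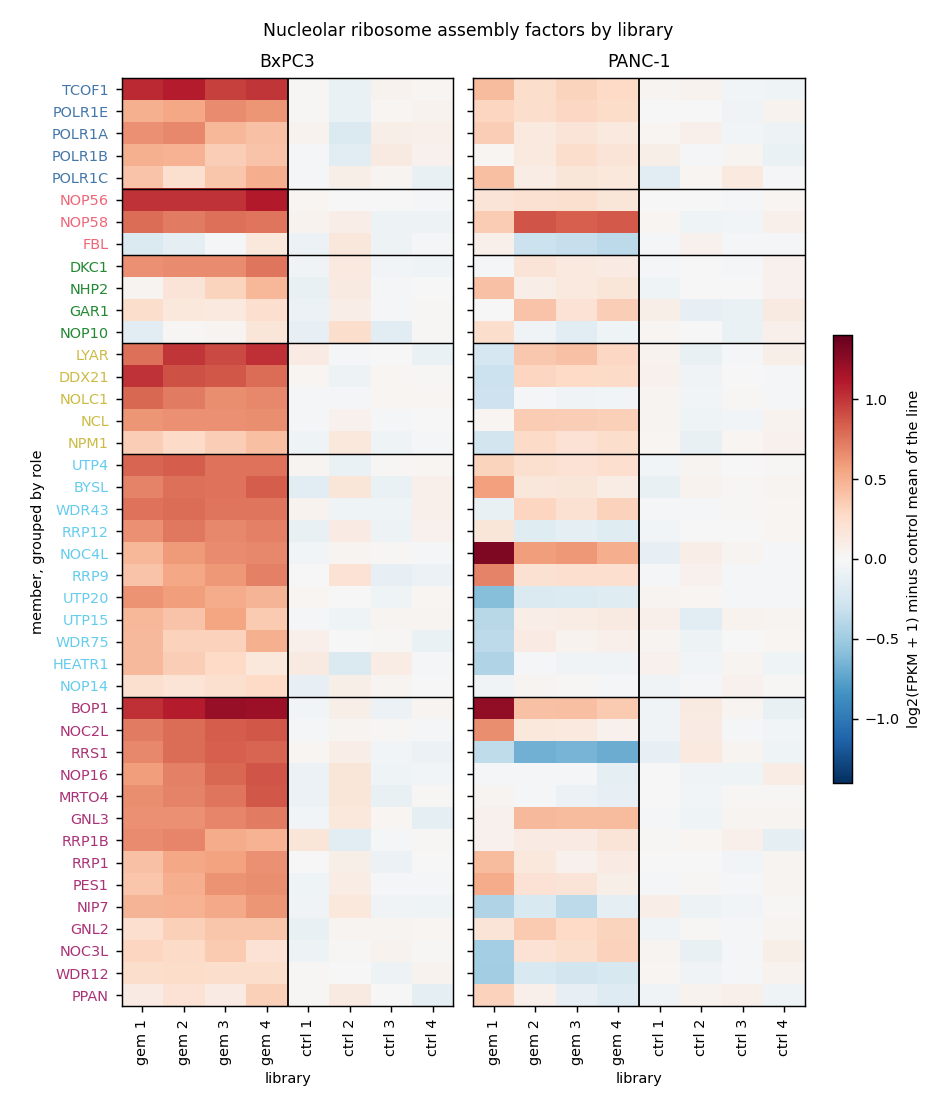
Each cell is a library's log2(FPKM + 1) minus the mean of the 4 controls of its line, for the 42 tested members grouped by role (rows; label colours mark RNA polymerase I, box C/D, box H/ACA, nucleolar RNA-binding, small-subunit and large-subunit factors from top to bottom), with gemcitabine libraries left of controls. In BxPC3 38 members are above all controls in all 4 gemcitabine libraries, while in PANC-1 replicate 1 differs from replicates 2 to 4 in many rows.

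Setting the lines side by side, 12 members were higher in both and 4 were higher in BxPC3 and lower in PANC-1. Over the 10670 genes tested in both lines these classes held 12.7% and 4.35%. Without PANC-1 gemcitabine replicate 1 the counts were 26 and 5, and these classes then held 18.7% and 8.50% of all genes tested in both lines. The difference of the 2 changes, BxPC3 minus PANC-1, was tested as the interaction of line and drug in limma over all 16 libraries. It was positive for 30 members and negative for 0 (0 also at an unadjusted p under 0.05, and 30 and 0 with limma-voom), against 26.6% positive and 25.2% negative among 14134 genes (28.1% and 20.4% with limma-voom). Its median over members was 0.43 on the log2 scale, against 0.02 over all genes, and 40 of 42 members had the larger change in BxPC3. Without PANC-1 gemcitabine replicate 1, 34 were positive and 0 negative, against 33.1% and 31.9% of all genes. The positive difference of PES1 (limma adjusted p = 0.0449) did not pass in 13 of the fits that left out 1 library (adjusted p of 0.0556 to 0.0947), nor that of GNL3 (adjusted p = 0.0280) in 5 of them (0.0511 to 0.0638). Across the 42 members the changes in the 2 lines correlated at r = 0.33, or 0.30 without that library, as a description.

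**Figure D3:**
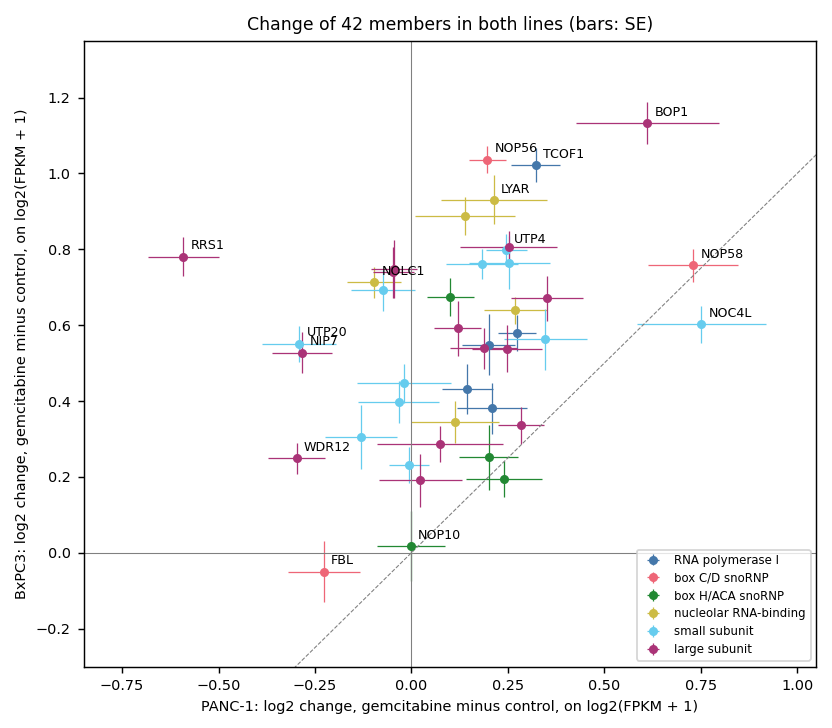
The log2 change with gemcitabine in BxPC3 (vertical axis) and in PANC-1 (horizontal axis) for 42 members on the log2(FPKM + 1) scale, with bars of 1 SE from limma and the dashed line where both changes are equal. Most members lie above the line. RRS1, UTP20, NIP7 and WDR12, called lower in PANC-1, lie left of 0, as do FBL, HEATR1, NOLC1 and other members not called there. NOP58 and NOC4L lie close to the line on the right.

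The RNA polymerase I members were all higher in BxPC3, 5 of 5, by 1.41- to 2.22-fold. Of these, 3 of 5 were higher in PANC-1, or 4 of 5 without replicate 1. The other RNA polymerase I genes, from the wider list, did not all rise in BxPC3. Among 11 tested there, 6 were higher and 2, ZNRD1 and POLR1D, lower (median log2 change 0.13), while 36.1% of all genes were lower. The shares of all genes called higher were 37.3% in BxPC3 and 20.7% in PANC-1, or 32.8% without replicate 1. TCOF1 (GRCh38 chr5:150357629-150400308, plus strand) encodes treacle, a nucleolar scaffold needed for ribosomal DNA transcription, and changed most. It was at 12.4, 13, 11.7 and 12 FPKM in BxPC3 with gemcitabine, against 5.61, 5.10, 5.75 and 5.63 FPKM in controls. In PANC-1 it was at 18.7, 16.2, 16.9 and 16.6 FPKM with gemcitabine, against 13.9, 14, 13.1 and 12.9 FPKM in controls. The groups did not overlap in either line, with folds of 2.22 and 1.27 (limma log2 change 1.02 ± 0.05 SE, adjusted p = 2.84e-08 in BxPC3, and 0.32 ± 0.06, adjusted p = 0.00292 in PANC-1). The change was larger in BxPC3 by 0.70 ± 0.08 on the log2 scale (limma interaction, adjusted p = 1.31e-06).

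The catalytic core subunits moved less. POLR1B, the second-largest subunit, was at 5.80, 5.71, 5.10 and 5.32 FPKM in BxPC3 with gemcitabine, against 3.73, 3.29, 4.24 and 4.01 FPKM in controls, without overlap (fold 1.44, limma adjusted p = 0.000187). PANC-1 libraries were at 11.7, 12.7, 13.8 and 13.1 FPKM with gemcitabine, against 12.2, 11.3, 11.8 and 10.7 FPKM in controls. There the groups overlapped through gemcitabine replicate 1, and POLR1B was not called (limma adjusted p = 0.109), whereas without that library it was called higher (adjusted p = 0.00475). POLR1C, which RNA polymerases I and III share, was at 4.07, 3.5, 4.06 and 4.49 FPKM in BxPC3 with gemcitabine, against 2.78, 3.09, 2.97 and 2.60 FPKM in controls, again without overlap and with the smallest fold of this group, 1.41 (limma adjusted p = 0.000477). In PANC-1 its libraries overlapped, at 6.19, 4.75, 5.03 and 4.93 FPKM with gemcitabine and 3.83, 4.47, 4.90 and 4.31 FPKM in controls, and it was not called with or without replicate 1. The largest subunit gene POLR1A and the accessory subunit gene POLR1E were higher in both lines, by 1.61- and 1.58-fold in BxPC3 and by 1.17- and 1.22-fold in PANC-1. The PANC-1 call of POLR1A (limma adjusted p = 0.0387) was lost without control replicate 1, 3 or 4 or gemcitabine replicate 2, 3 or 4 (adjusted p of 0.0516 to 0.108).

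The box C/D members divided. NOP56 and NOP58, paired scaffold proteins of this snoRNP, were higher in both lines, and FBL, its methyltransferase fibrillarin, was not called by limma in either. NOP56 (chr20:2652145-2658393, plus strand) was at 53.4, 53.6, 53.5 and 57.2 FPKM in BxPC3 with gemcitabine, against 26.5, 26.2, 25.9 and 25.4 FPKM in controls. Its PANC-1 libraries were at 36.7, 37.8, 38.0 and 36.6 FPKM with gemcitabine, against 32.2, 32.3, 32.0 and 33.0 FPKM in controls. Neither pair of groups overlapped, but the fold was 2.09 in BxPC3 and 1.15 in PANC-1 (limma adjusted p = 4.30e-09 and 0.00859). The difference of 0.84 ± 0.05 SE on the log2 scale had the smallest p of all members (limma interaction, adjusted p = 2.99e-09).

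NOP58 (chr2:202265716-202303666, plus strand) lies beside NOP56 in the particle and changed by a like amount in both lines. It was at 23.6, 22.6, 23.3 and 22.9 FPKM in BxPC3 with gemcitabine, against 13.7, 14.2, 12.6 and 12.6 FPKM in controls. The values in PANC-1 were 34.1, 49.5, 48.0 and 49.1 FPKM with gemcitabine, against 27.0, 25.4, 25.9 and 27.9 FPKM in controls. All gemcitabine libraries were above all controls in both lines, and PANC-1 gemcitabine replicate 1 was the lowest of its group. The folds were 1.74 and 1.70, or 1.84 in PANC-1 without that library (limma adjusted p = 1.64e-07 in BxPC3 and 0.000985 in PANC-1). The log2 changes differed by 0.03 ± 0.13 SE (limma interaction, adjusted p = 0.881), and this error does not show that they are equal.

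FBL (chr19:39834458-39846414, minus strand) was at 87.5, 92.5, 99.5 and 112 FPKM in BxPC3 with gemcitabine, against 95.5, 113, 95.6 and 100 FPKM in controls. PANC-1 held it at 968, 745, 736 and 715 FPKM with gemcitabine, against 911, 957, 899 and 909 FPKM in controls. The BxPC3 groups overlapped throughout (fold 0.968, limma adjusted p = 0.598). In PANC-1 3 gemcitabine libraries were below all controls and replicate 1 was above them, so that FBL was not called with it (fold 0.861, adjusted p = 0.0792) and was called lower without it (fold 0.797, adjusted p = 2.88e-06). With all 4 libraries, limma-voom called FBL lower in PANC-1 (log2 change -0.25, adjusted p = 0.0294), and so did limma with a trend on GC content taken out of every library (adjusted p = 0.00241). FBL was the member with the widest gap between the lines: the mean of controls was 9.09 times as high in PANC-1 as in BxPC3, a ratio of tables normalized separately and given without a test.

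**Figure D4:**
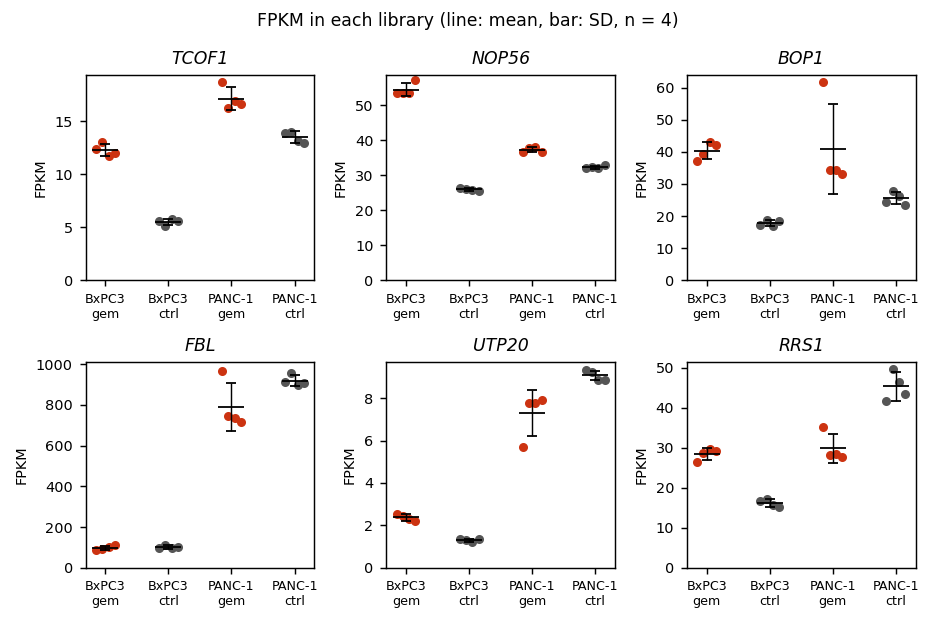
FPKM of TCOF1, NOP56, BOP1, FBL, UTP20 and RRS1 in each library (points) with the mean of 4 libraries and its SD, in BxPC3 with gemcitabine, BxPC3 control, PANC-1 with gemcitabine and PANC-1 control from left to right; each panel starts at 0. RRS1 and UTP20 are higher with gemcitabine in BxPC3 and lower in PANC-1, and in PANC-1 gemcitabine replicate 1 is the top point for BOP1 and FBL.

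In BxPC3 the largest change of the box H/ACA core was that of its catalytic subunit. DKC1, the pseudouridine synthase dyskerin, was at 38.8, 39.4, 39.4 and 42.1 FPKM in BxPC3 with gemcitabine, against 23.8, 27.1, 24.0 and 23.6 FPKM in controls, with no overlap (fold 1.62, limma adjusted p = 9.90e-07). In PANC-1 it was at 52.0, 60.4, 58.5 and 57.7 FPKM with gemcitabine, against 52.4, 52.8, 52.0 and 55.4 FPKM in controls. Only replicate 1 overlapped the controls there, and DKC1 was not called (fold 1.08, limma adjusted p = 0.211), or was called higher without that library (fold 1.11, adjusted p = 0.00249). The difference between the lines was 0.57 ± 0.08 SE (limma interaction, adjusted p = 1.77e-05).

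The small partners of dyskerin changed little. GAR1 was at 9.67, 8.93, 8.89 and 9.56 FPKM in BxPC3 with gemcitabine, against 7.44, 8.56, 7.80 and 8.09 FPKM in controls, all above controls but by 1.16-fold (limma adjusted p = 0.00429). PANC-1 libraries were at 16.4, 21.8, 18.9 and 21.0 FPKM with gemcitabine, against 17.3, 15, 15.2 and 17.9 FPKM in controls. Replicate 1 overlapped the controls, and the call depended on it (adjusted p = 0.0781 with it and 0.00296 without it). NOP10, the smallest protein of the particle, was at 110, 123, 125 and 137 FPKM in BxPC3 with gemcitabine, against 113, 145, 110 and 123 FPKM in controls. Its PANC-1 libraries were at 213, 173, 161 and 172 FPKM with gemcitabine, against 183, 178, 168 and 188 FPKM in controls. Groups overlapped in both lines (limma log2 change 0.02 ± 0.09 SE in BxPC3 and 0.00 ± 0.09 in PANC-1), and NOP10 was not called with or without replicate 1. NHP2, the fourth core protein, was higher by 1.20-fold in BxPC3 with overlapping groups (limma adjusted p = 0.0233). That call was lost without control replicate 1 or 3 or gemcitabine replicate 3 or 4 (adjusted p of 0.0503 to 0.0645). Of its exonic bases, 27.4% lie under RMND5B on the other strand, whose reads cannot be told apart because strand use is not given. In PANC-1 limma called 0 of the 4 box H/ACA genes higher or lower (2 higher and 0 lower at an unadjusted p under 0.05, and 0 with limma-voom), and 3 higher without replicate 1. Over all genes there limma called 20.7% higher with replicate 1 and 32.8% without it.

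The nucleolar RNA-binding proteins were all higher in BxPC3, 5 of 5, by 1.27- to 2.17-fold, against 37.3% of all genes. In PANC-1 1 of 5, NCL, was called higher, and 4 of 5 without replicate 1, against 20.7% and 32.8% of all genes. NCL, nucleolin, binds nascent ribosomal RNA and was among the most abundant members, at 97.7, 99.8, 99.8 and 100 FPKM in BxPC3 with gemcitabine, against 62.7, 66.2, 62.1 and 63.1 FPKM in controls. The values in PANC-1 were 120, 151, 149 and 148 FPKM with gemcitabine, against 121, 113, 114 and 122 FPKM in controls. The BxPC3 groups lay far apart (fold 1.57, limma adjusted p = 1.08e-07), while in PANC-1 replicate 1 lay among the controls (fold 1.21, limma adjusted p = 0.0248). The PANC-1 call was lost when control replicate 2 or 3 or gemcitabine replicate 2, 3 or 4 was left out (adjusted p of 0.0661 to 0.0709).

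NPM1, nucleophosmin, is a nucleolar histone chaperone that also binds ribosomal proteins. It was at 143, 136, 143 and 151 FPKM in BxPC3 with gemcitabine, against 108, 125, 108 and 111 FPKM in controls, above all of them but by a modest 1.27-fold (limma adjusted p = 0.000275). PANC-1 held it at 187, 269, 257 and 265 FPKM with gemcitabine, against 227, 208, 227 and 232 FPKM in controls. Replicate 1 was the lowest of all 8 libraries there, and NPM1 was not called with it (adjusted p = 0.460) and called higher without it (adjusted p = 0.000314). The tables list 45 NPM1 pseudogenes, so its reads may be divided among copies.

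NOLC1, DDX21 and LYAR showed the largest gaps between lines in this group. NOLC1 (chr10:102152176-102163871, plus strand), a phosphoprotein that escorts snoRNPs, was at 45.7, 43.3, 41.3 and 41.7 FPKM in BxPC3 with gemcitabine, against 25.3, 25.4, 26.4 and 26.3 FPKM in controls. In PANC-1 it was at 70.3, 85.2, 82.7 and 83.8 FPKM with gemcitabine, against 88.4, 83.7, 86.6 and 84.9 FPKM in controls. The BxPC3 groups were well separated (fold 1.67, limma adjusted p = 1.46e-07), and the PANC-1 groups overlapped (fold 0.937, adjusted p = 0.298), with no call without replicate 1 either. The difference was 0.81 ± 0.08 SE (limma interaction, adjusted p = 5.36e-07). LYAR, a nucleolar zinc-finger protein linked to cell growth, was at 6.59, 7.90, 7.44 and 8.06 FPKM in BxPC3 with gemcitabine, against 3.81, 3.39, 3.44 and 3.17 FPKM in controls. Its PANC-1 values were 10.8, 17.0, 17.5 and 16 FPKM with gemcitabine, against 13.4, 11.9, 12.6 and 13.7 FPKM in controls. The BxPC3 fold of 2.17 was the highest of the group, and in PANC-1 3 libraries lay above the controls and replicate 1 below them (limma adjusted p = 0.244 with it and 7.08e-05 without it). DDX21, an RNA helicase, was 1.90-fold higher in BxPC3 and 1.12-fold, not called, in PANC-1, or 1.22-fold higher without replicate 1 (limma adjusted p = 1.6e-05).

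Small-subunit factors were all higher in BxPC3, 11 of 11, by 1.18- to 1.82-fold, against 37.3% of all genes. They were mixed in PANC-1, where 3 were higher (UTP4, RRP9 and NOC4L), 1 was lower (UTP20) and 7 were not called. Over all genes there 20.7% were higher and 24.0% lower. Without replicate 1, 5 were higher and 2 lower, against 32.8% and 37.0% of all genes. UTP4 (chr16:69131291-69231130, plus strand) belongs with UTP15, WDR43, WDR75 and HEATR1 to the complex that joins the nascent precursor first, as known from yeast. It was at 18.7, 19.1, 17.9 and 17.9 FPKM in BxPC3 with gemcitabine, against 10.5, 9.47, 10.3 and 10.4 FPKM in controls. PANC-1 libraries were at 12.7, 11.8, 11.7 and 11.9 FPKM with gemcitabine, against 9.67, 10.3, 9.93 and 10.1 FPKM in controls. Groups did not overlap in either line, and the folds were 1.81 and 1.21 (limma adjusted p = 7.71e-08 in BxPC3 and 0.00519 in PANC-1), with a difference of 0.55 ± 0.06 SE in log2 change (limma interaction, adjusted p = 2.68e-06). The 4 partners were higher in BxPC3 by 1.29-fold (HEATR1) to 1.77-fold (WDR43) and not called in PANC-1. Without PANC-1 replicate 1, WDR43 was called higher (1.22-fold, limma adjusted p = 4.54e-05), and UTP15, WDR75 and HEATR1 were not called. For HEATR1, 23.2% of the exonic bases lie under LGALS8 on the other strand.

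UTP20 (chr12:101280109-101386616, plus strand), a large scaffold protein of the particle that processes the small-subunit precursor, had opposite calls in the lines. It was at 2.54, 2.44, 2.30 and 2.20 FPKM in BxPC3 with gemcitabine, against 1.34, 1.31, 1.20 and 1.34 FPKM in controls. Its PANC-1 libraries were at 5.68, 7.77, 7.79 and 7.93 FPKM with gemcitabine, against 9.31, 9.23, 8.88 and 8.88 FPKM in controls. No library overlapped in either line, with replicate 1 the lowest in PANC-1 (fold 1.82 in BxPC3, limma adjusted p = 3.13e-06, and 0.803 in PANC-1, adjusted p = 0.0362). Without replicate 1 the PANC-1 fold was 0.863 (adjusted p = 0.000655). The call was lost when any 1 PANC-1 control was left out (adjusted p of 0.0713 to 0.0876). The difference was 0.84 ± 0.11 SE (limma interaction, adjusted p = 7.02e-06).

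NOP14 and NOC4L, whose yeast counterparts act as a pair, were called alike in BxPC3 and not in PANC-1. NOC4L (chr12:132144448-132152473, plus strand) was at 27.8, 30.5, 32.0 and 32.3 FPKM in BxPC3 with gemcitabine, against 19.3, 20.4, 20.1 and 19.5 FPKM in controls. The values in PANC-1 were 17.6, 10.3, 10.4 and 9.69 FPKM with gemcitabine, against 5.92, 7.02, 6.72 and 6.42 FPKM in controls. All gemcitabine libraries were above all controls in both lines, and PANC-1 replicate 1 was far above its group. The folds were 1.55 in BxPC3 and 1.84 in PANC-1, or 1.55 in PANC-1 without that library (limma adjusted p = 2.10e-06, 0.00567 and 3.65e-06), and the difference of -0.15 ± 0.18 SE was not called. NOP14 was at 24.1, 23.5, 24.0 and 25.1 FPKM in BxPC3 with gemcitabine, against 18.8, 21.8, 21.0 and 20.4 FPKM in controls. PANC-1 held it at 20.3, 21.5, 21.2 and 20.6 FPKM with gemcitabine, against 20.3, 20.5, 21.9 and 21.3 FPKM in controls. It was higher by 1.18-fold in BxPC3 without overlap (limma adjusted p = 0.00128) and not called in PANC-1, where the groups coincided. An antisense gene, NOP14-AS1, covers 17.1% of its exonic bases, at 3.33 FPKM with gemcitabine and 3.35 FPKM in controls in BxPC3.

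The remaining small-subunit genes were RRP9, a protein of the U3 snoRNP, and BYSL and RRP12, which act late in maturation. In BxPC3 they were higher by 1.5-, 1.77- and 1.80-fold. In PANC-1 RRP9 was called higher (1.3-fold, limma adjusted p = 0.0279), a call lost when any 1 PANC-1 control was left out (adjusted p of 0.0507 to 0.0690), and the folds of BYSL and RRP12, neither called, were 1.21 and 0.953. Without PANC-1 replicate 1, BYSL was called higher (1.11-fold) and RRP12 lower (0.892-fold).

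Large-subunit factors were all higher in BxPC3, 14 of the 14 tested, by 1.20- to 2.26-fold, against 37.3% of all genes. In PANC-1 3 were higher (BOP1, GNL2 and GNL3), 3 lower (RRS1, NIP7 and WDR12) and 8 not called. These PANC-1 counts are near the shares of all genes, 20.7% higher and 24.0% lower. Without replicate 1, 8 were higher and the same 3 lower, against 32.8% and 37.0% of all genes. BOP1, PES1 and WDR12 form the PeBoW complex, which is needed to process the large-subunit precursor. BOP1 (chr8:144262102-144291370, minus strand) had the largest change of all members in BxPC3, at 37.3, 39.2, 43.0 and 42.1 FPKM with gemcitabine, against 17.3, 18.9, 16.8 and 18.4 FPKM in controls. In PANC-1 it was at 61.8, 34.3, 34.5 and 33.1 FPKM with gemcitabine, against 24.5, 27.8, 26.2 and 23.6 FPKM in controls. No library overlapped, but PANC-1 replicate 1 was far above its group. The fold was 2.26 in BxPC3 (limma adjusted p = 4.62e-08) and 1.60 in PANC-1 (adjusted p = 0.0249), or 1.33 without that library (adjusted p = 4.33e-05). The PANC-1 call was lost without control replicate 1, 3 or 4 (adjusted p of 0.0530 to 0.0683).

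The difference for BOP1, 0.52 ± 0.20 SE, just passed the threshold (limma interaction, adjusted p = 0.0435) and was 0.73 without PANC-1 gemcitabine replicate 1 (adjusted p = 1.17e-06). It did not pass without any 1 of the BxPC3 controls, BxPC3 gemcitabine replicates 2 to 4, PANC-1 control replicates 1 to 3 or PANC-1 gemcitabine replicates 2 to 4 (adjusted p of 0.0510 to 0.0896). WDR12 (chr2:202874782-203014798, minus strand) was at 3.43, 3.47, 3.42 and 3.42 FPKM in BxPC3 with gemcitabine, against 2.79, 2.74, 2.56 and 2.85 FPKM in controls. PANC-1 libraries were at 8.68, 10.7, 10.4 and 10.6 FPKM with gemcitabine, against 12.9, 12.1, 12.3 and 13.1 FPKM in controls. Groups were separate in both lines and opposite in direction (fold 1.26 in BxPC3, limma adjusted p = 0.000271, and 0.801 in PANC-1, adjusted p = 0.00998, or 0.838 without replicate 1). The other gene of the complex, PES1, was 1.48-fold higher in BxPC3 and 1.20-fold, not called, in PANC-1 (adjusted p = 0.0537), or 1.12-fold higher without replicate 1 (adjusted p = 0.00319).

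RRS1 (chr8:66429028-66430733, plus strand), whose yeast counterpart helps to bring the smallest ribosomal RNA into the large subunit, differed most in size between the lines. It was at 26.4, 28.7, 29.8 and 29.3 FPKM in BxPC3 with gemcitabine, against 16.6, 17.3, 15.8 and 15.2 FPKM in controls. Its PANC-1 libraries were at 35.3, 28.1, 28.5 and 27.6 FPKM with gemcitabine, against 41.7, 49.8, 46.6 and 43.4 FPKM in controls. All groups were separate, higher in BxPC3 and lower in PANC-1 with the drug (fold 1.76, limma adjusted p = 3.63e-07, and fold 0.658, adjusted p = 0.000885). Without PANC-1 replicate 1 the PANC-1 fold was 0.618 (adjusted p = 1.41e-06). The difference was 1.37 ± 0.11 SE on the log2 scale (limma interaction, adjusted p = 3.27e-08), and with the drug the levels in the lines, 28.6 and 29.9 FPKM on average, came close, although the tables were normalized separately.

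NIP7 (chr16:69337996-69343111, plus strand), an assembly factor needed for pre-rRNA processing, also had opposite calls. It was at 16.5, 16.6, 17.2 and 18.3 FPKM in BxPC3 with gemcitabine, against 11.2, 12.9, 11.2 and 11.1 FPKM in controls. The values in PANC-1 were 13.6, 15.9, 14.2 and 16.9 FPKM with gemcitabine, against 19.9, 17.7, 18.0 and 18.8 FPKM in controls. The groups did not overlap (fold 1.48 in BxPC3, limma adjusted p = 1.03e-05, and 0.814 in PANC-1, adjusted p = 0.0163, or 0.842 without replicate 1). The PANC-1 call was lost without control replicate 1 (adjusted p = 0.0536) or gemcitabine replicate 3 (adjusted p = 0.0504). COG8 covers 20.2% of the exonic bases of NIP7 on the other strand, at 2.59 to 3.15 FPKM in the 4 groups.

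MRTO4 (chr1:19251539-19260128, plus strand), whose yeast counterpart holds the place of a stalk protein during assembly, was at 37.5, 38.7, 40.1 and 43.6 FPKM in BxPC3 with gemcitabine, against 22.1, 26.6, 21.8 and 23.7 FPKM in controls. PANC-1 held it at 38.6, 36.8, 35.4 and 34.7 FPKM with gemcitabine, against 37.5, 36.7, 38.0 and 38.1 FPKM in controls. It was well above controls in BxPC3 (fold 1.70, limma adjusted p = 4.93e-06) and overlapped them in PANC-1 (fold 0.968, adjusted p = 0.520), and the difference was 0.79 ± 0.09 SE (limma interaction, adjusted p = 2.07e-06). PPAN, the counterpart of a yeast large-subunit factor, showed the smallest change of the group in BxPC3, at 2.59, 2.80, 2.58 and 3.18 FPKM with gemcitabine, against 2.34, 2.62, 2.30 and 2.01 FPKM in controls. In PANC-1 it was at 2.83, 2.21, 1.84 and 1.70 FPKM with gemcitabine, against 1.96, 2.17, 2.21 and 1.93 FPKM in controls. PPAN groups overlapped in both lines, and its call in BxPC3 (fold 1.20, limma adjusted p = 0.0300) was lost without control replicate 1, 3 or 4 or gemcitabine replicate 2 or 4 (adjusted p of 0.0531 to 0.0859). It shares 56.0% of its exonic bases with the read-through gene PPAN-P2RY11, which was at 0.00399 FPKM or less on average in each group.

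The other large-subunit genes kept the same pattern. NOP16, NOC2L, RRP1, RRP1B, NOC3L and the nucleolar GTPase genes GNL2 and GNL3 (nucleostemin) were higher in BxPC3 by 1.29-fold (NOC3L and GNL2) to 1.80-fold (NOP16). In PANC-1 GNL2 and GNL3 were called higher, by 1.23- and 1.3-fold, and the other 5 were not called, with folds of 0.966 to 1.21. Without PANC-1 replicate 1, RRP1, RRP1B, NOC2L and NOC3L were called higher as well, and NOP16 was not called.

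PANC-1 gemcitabine replicate 1 departed from replicates 2 to 4 in a way that followed base composition. Across the 42 members its deviation from the mean of the other 3, on log2(FPKM + 1), correlated with the GC content of the longest transcript at r = 0.90, a description over genes that share the library. In the 14 members of lowest GC (37.7% to 44.8%) the median deviation was -0.42 and 0 were above the other libraries' mean, while in the 14 of highest GC (54.1% to 65.2%) it was 0.38 and 14 were above. The library departed likewise over all genes: the median was -0.33 for the 3639 tested genes in the lower GC range, with 6.29% above, and 0.39 for the 3617 in the higher range, with 95.8% above. These sets of 14 were chosen after the values were seen. BOP1 (65.2% GC) and NOC4L (64.8% GC) were the farthest above. With a trend on GC taken out of every library, limma called 20 members higher and 6 lower in PANC-1, against 30.0% and 35.8% of all genes, and 40 higher and 0 lower in BxPC3, against 37.6% and 37.0%. The part of GC content in any one member's change was not tested further.

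**Figure D5:**
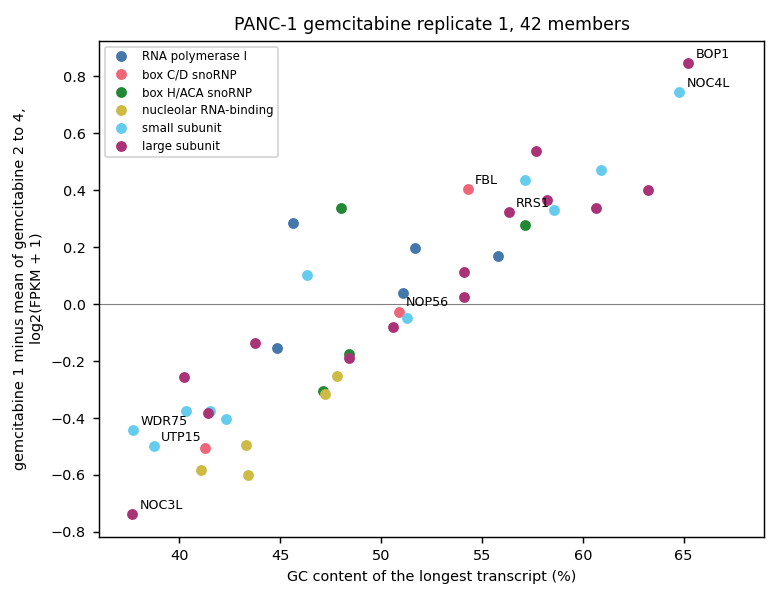
The log2(FPKM + 1) of PANC-1 gemcitabine replicate 1 minus the mean of replicates 2 to 4 for 42 members (vertical axis) against the GC content of the longest transcript in percent (horizontal axis), coloured by role. The values climb with GC, with a median of -0.42 in the 14 members of lowest GC and 0.38 in the 14 of highest GC.

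Among controls, 39 of 42 members had a higher mean FPKM in PANC-1 than in BxPC3, with a median ratio of 2.03. The exceptions were NOC4L (0.329), PPAN (0.891) and UTP4 (0.983). Protein-coding genes leaned the same way. Over 11826 of them with a control mean of at least 1 FPKM in either line, the median log2 ratio was 0.22 on the log2(FPKM + 1) scale. The share of those genes that were higher in PANC-1 was not counted. The tables were normalized separately, so these ratios are given without a test.

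The wider list of 113 other ribosome assembly genes moved in the same direction as the members in BxPC3 and by less. Of 110 tested, 84 were higher and 7 lower in BxPC3 (median log2 change 0.35), against 37.3% and 36.1% of all genes. In PANC-1 15 of 109 were higher and 10 lower, with a median of 0.05. Both are smaller shares than the 20.7% and 24.0% of all genes there. Without replicate 1 the counts were 51 and 23, against 32.8% and 37.0% of all genes. The difference between lines was positive for 52 and negative for 6, against 26.6% and 25.2% of all genes. The large-subunit gene EBNA1BP2, the helicase gene DHX37 and the small-subunit gene LTV1 had the largest log2 changes in BxPC3, at 0.87, 0.83 and 0.81, and by fold NOL12 (2.04) and URB2 (2.03) came first. NOP53, a late large-subunit factor, went the other way, at 41.4 ± 3.93 FPKM with gemcitabine and 166 ± 16.4 FPKM in BxPC3 controls and 18.6 ± 3.81 FPKM with gemcitabine and 33.0 ± 1.89 FPKM in PANC-1 controls (SD, n = 4 each; limma adjusted p = 1.53e-08 in BxPC3 and 0.000647 in PANC-1). EIF6, which keeps the subunits apart, was the largest rise of the list in PANC-1, at 86.9 ± 16.3 FPKM with gemcitabine and 47.2 ± 2.91 FPKM in controls (SD, n = 4 each; limma adjusted p = 0.000407), and was 1.29-fold higher in BxPC3.

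The ribosomal proteins on which these factors act did not share the rise. In BxPC3 5 of 82 tested cytosolic ribosomal protein genes were higher and 71 lower (median log2 change -0.88). In PANC-1 0 of 81 were higher (1 without replicate 1) and 64 lower, with a median of -0.38. Mitochondrial ribosomal protein genes had 43 of 76 higher and 8 lower in BxPC3 (median 0.23), and 11 higher and 13 lower in PANC-1 (median -0.03). Over all genes 37.3% were higher and 36.1% lower in BxPC3, and 20.7% higher and 24.0% lower in PANC-1.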

How the data were processed

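RNA of 16 libraries, 4 per group, was sequenced after poly-A selection, per the labels' protocols. Each line has its own deposited table, holding FPKM for every gene and library and, as another unit, gene length in bases, per the file headers. CASAVA and HISAT2 are named per the submitters' processing notes, which also name the mouse build mm10. All identifiers in the deposited tables are nonetheless human, and 58724 of 58735 genes have the start and end of GENCODE 29 on GRCh38, the build used here for gene coordinates. For the counting program and strand use, the answer is not given in the sources used here, and reads of genes overlapping on the 2 strands cannot be separated.

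Each line was fitted alone with limma 3.58.1 (trend and robust) in R 4.3.3 on log2(FPKM + 1), over genes that reached 1 FPKM in 4 or more libraries; Benjamini-Hochberg adjustment ran over all genes tested, at 0.05. The lines were compared through the interaction of line and drug over 16 libraries. Folds are ratios of mean FPKM, and a ± after a log2 change is its standard error. Whole reads could be recovered from FPKM and gene length for 100% of values (tolerance 0.02 reads), and gave the depth and the input to limma-voom. No 2 libraries of a group agreed within counting noise (lowest chi-square over its degrees of freedom, 2.07). Promoter windows came from RefSeq on GRCh38.p14. Of the members, 35 matched. Tables were handled with pandas 2.3.3 and numpy 2.4.6, and figures drawn with matplotlib 3.10.9. The fits were tested on simulated data.

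The members, their roles and the lists were chosen with earlier results of these data known. Values in every library are printed for the member of each role with the largest and the smallest change in each line, all members called lower, and the 6 with the smallest p for the difference. Genes of the wider list were named as the extremes of their list, after their values were seen. Alternatives were other pseudocounts, filters, scalings, limma settings, limma-voom, a GC correction, a fold threshold, the replicate block and leaving out each library.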

Additional observations from a re-analysis of the deposited data

Results flagged for a closer look

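By Dixon's criterion, chance alone puts a library far from the other 3 in about 1 in 20 independent sets of 4. The 92 sets here (23 members in 4 groups) share libraries, and their members were picked by their changes, so that rate does not apply. Of the 92 sets, 14 held a library far from the other 3. PANC-1 gemcitabine replicate 1 was that library in 10 of the 14: NOP58 at 34.1 FPKM, NCL at 120, NPM1 at 187, NOLC1 at 70.3, UTP20 at 5.68 and WDR12 at 8.68 were below the rest of the group, while FBL at 968, NOC4L at 17.6, BOP1 at 61.8 and RRS1 at 35.3 were above it. BxPC3 control replicate 2 was high for DKC1 (27.1 FPKM), NPM1 (125) and NIP7 (12.9), and BxPC3 gemcitabine replicate 4 was high for NOP56 (57.2).

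The change with gemcitabine differed between the lines for 30 members by the limma interaction, each time larger in BxPC3. Among all 14134 genes tested this way, 26.6% differed in that direction and 25.2% in the other. The differences of PES1, BOP1 and GNL3 were not called in 13, 13 and 5 of the fits that left out 1 library. On the log2 scale, BxPC3 minus PANC-1, the RNA polymerase I genes differed by 0.35 (POLR1A), 0.29 (POLR1B), 0.31 (POLR1E) and 0.70 (TCOF1). The snoRNP genes NOP56 and DKC1 differed by 0.84 and 0.57. Among RNA-binding proteins the values were 0.37 for NCL, 0.81 for NOLC1, 0.75 for DDX21 and 0.72 for LYAR. Among small-subunit factors they were 0.55 for UTP4, 0.47 for UTP15, 0.58 for WDR43, 0.43 for WDR75, 0.44 for HEATR1, 0.84 for UTP20, 0.24 for NOP14, 0.51 for BYSL and 0.77 for RRP12. Among large-subunit factors they were 0.52 for BOP1, 0.29 for PES1, 0.55 for WDR12, 0.79 for NOP16, 0.35 for RRP1, 0.47 for RRP1B, 1.37 for RRS1, 0.55 for NOC2L, 0.32 for GNL3, 0.79 for MRTO4 and 0.81 for NIP7.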

How the results depend on the processing

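No result of the members changed direction past the threshold under any alternative tried. Requiring an absolute log2 change of at least 1 left 3 members higher in BxPC3, 0 higher and 0 lower in PANC-1 and 1 with a positive difference. Over all genes it left 538 higher and 491 lower in BxPC3, 401 and 133 in PANC-1, and 446 positive and 647 negative differences. In the wider list it left 0 higher and 1 lower in BxPC3 and 0 and 0 in PANC-1. With the GC trend removed, PANC-1 had 20 members higher and the wider list 36 higher and 22 lower there, against 30.0% and 35.8% of all genes.

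Leaving out 1 library at a time gave 38 to 40 members higher and 0 lower in BxPC3, 8 to 26 higher and 2 to 6 lower in PANC-1, and 27 to 34 positive and 0 negative differences. Without PANC-1 gemcitabine replicate 1 there were 26 higher, and without PANC-1 control replicate 1 only 2 lower. Over all genes the ranges were 4343 to 4676 higher and 4200 to 4441 lower in BxPC3, 2189 to 4102 and 2452 to 4626 in PANC-1, and 3497 to 4685 positive and 3351 to 4509 negative differences. The wider list had 78 to 85 higher and 5 to 8 lower in BxPC3, and 13 to 51 and 7 to 23 in PANC-1. With no filter on low values, limma lost the PANC-1 calls of NCL, POLR1A, RRP9, BOP1 and UTP20 (adjusted p of 0.0606 to 0.0833), the BxPC3 calls of NHP2 and PPAN (0.0836 and 0.0849) and the differences of BOP1, GNL3 and PES1 (0.0641 to 0.111). With TPM scaling UTP20 lost its PANC-1 call (limma adjusted p = 0.0712), while BYSL, NHP2 and PES1 became called higher there (0.0228 to 0.0411). FBL and RRP9 then gained a positive difference (0.048 and 0.0455). With median-ratio scaling PES1 lost its difference (0.0531), while NHP2 and PES1 became called higher in PANC-1 (0.0428 and 0.0391). The cause was not tested.

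The groups share only replicate numbers. Same-numbered libraries correlated in their deviations at 0.18, -0.33, -0.09 and -0.10 in BxPC3 and at -0.22, -0.38, 0.03 and 0.19 in PANC-1. The signs were mixed, and with 4 libraries per group these values cannot show whether a shared number marks a shared batch or culture. With the replicate number as a block, 39 members were higher and 0 lower in BxPC3, against 4347 and 4206 of all 12215 genes. In PANC-1 8 members were higher and 2 lower, and 27 differences were positive. These are given without the share of all genes. NOP56, NCL, POLR1A, RRP9, UTP20 and NIP7 lost their PANC-1 calls under the block (limma adjusted p of 0.0509 to 0.0935). PPAN lost its BxPC3 call (0.0636), and POLR1B, BOP1 and PES1 lost their differences (0.0578 to 0.0761). The 42 tested members had at least 121 reads per library and NOP2 as few as 3; the effect of depth on the calls was not tested.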

Other observations

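FBL was 9.09 times as high in PANC-1 controls as in BxPC3 controls, and its neighbours on chromosome 19 were looked at after this was seen. Protein-coding genes within 500 kb were taken if their control mean was at least 1 FPKM in either line. Of these 22, 18 had a log2 ratio of PANC-1 over BxPC3 controls of at least 2 on the log2(FPKM + 1) scale, and the median was 2.51. Over all 11826 protein-coding genes at such a level 4.89% were that much higher in PANC-1, and the median was 0.22. The neighbours include RPS16, at 2999 FPKM in PANC-1 and 578 in BxPC3 controls, the proteasome ATPase gene PSMC4 at 802 and 59.2, the transcription elongation gene PAF1 at 300.0 and 35.9, and the kinase gene AKT2 at 96.7 and 15.9. C19orf47, at the far end of the window, was at 3.77 and 4.92. No copy number data were analysed here, and the tables were normalized separately.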
